A study of Mus musculus with 2 samples.

Results

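Bone morphogenetic proteins (BMPs) are secreted ligands of the TGF-beta superfamily, named for their capacity to induce bone. They bind complexes of type I and type II serine/threonine kinase receptors, which phosphorylate SMAD1, SMAD5 and SMAD9, and these enter the nucleus with SMAD4 to switch on targets such as the Id genes. Secreted antagonists trap the ligands before they reach a receptor, and pseudoreceptors and inhibitory SMADs damp the signal at the cell surface and inside the cell, so who sends, who receives and who blocks can be read from different genes in different cells.

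The 10 genes described here were taken by symbol from the 32285 genes of the deposited count tables. They comprise 4 ligands (Bmp2, Bmp4, Bmp6 and Bmp7), a type I and a type II receptor (Bmpr1a and Bmpr2), the antagonists Grem1 (Gremlin 1) and Nog (Noggin), the direct target Id1, and the pseudoreceptor Bambi. Their transcripts were counted in single cells from the skulls of male, 2-month-old mice, C57BL/6 by the labels and C57BL/6J in the study's text, 7 days after a calvarial bone defect was made. The GA group received daily intraperitoneal injections of gambogic amide (GA), a small molecule agonist of the nerve growth factor receptor TrkA, at 1.2 mg/kg in 100 μL of 10% DMSO according to the sample labels (the study's text states another daily dose), beginning 24 h before the injury and continuing for 1 week, whereas the Control group received 10% DMSO alone on the same schedule. Bone around the defect, with an edge of about 3 mm, was minced, digested with collagenases I and II and passed through red cell lysis, so cells that resist digestion or are lysed are underrepresented.

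Each condition was a single library of cells pooled from several mice, so there were no replicates and no difference between GA and Control could be tested against the spread between animals. All intervals below are exact 95% intervals that cover counting error only. After filtering, 8380 GA cells and 7553 Control cells remained, with a median of 10968.5 and 16299 UMIs (unique molecular identifiers, each standing for 1 captured mRNA molecule) per cell. The 10 genes together accounted for 27532 UMIs in the GA library and 48884 in the Control library. A total of 23 cell barcodes occurred in both libraries, of which 18 were among the retained cells. Clusters were built without any BMP gene and named "X-like" from marker lists. The mesenchymal lineage comprised 915 GA cells (10.9% of cells) and 1776 Control cells (23.5%), neutrophils 52.6% and 27.6%, and macrophages or monocytes 16.1% and 24.2%. Within the lineage, the osteoblast-like cells carried Bglap (osteocalcin, a bone matrix protein of mature osteoblasts) at 43593 CPM in GA and 48820 CPM in Control, against 2961 and 1310 CPM over the whole lineage, where CPM is UMIs of the gene divided by all UMIs of the cell class and scaled to 1000000. Summed levels of 10 neutrophil markers stood higher in the GA library inside non-neutrophil classes as well, at 3239 against 857 CPM in osteoblast-like cells and 5257 against 202 CPM in endothelial cells, and their part in the values below was not tested.

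Ligands and antagonists came mostly from the mesenchymal lineage (heat map of levels by cell class). The lineage also held most UMIs of Bmpr1a (71.6% in GA and 90.5% in Control), Bmpr2 (56.1% and 71.3%) and Bambi (51.8% and 63.6%). For Bmp2 it held 83.4% and 72.5%. Of the UMIs of Bmp6, 96.6% in GA and 98.6% in Control lay in the lineage, and the corresponding shares were 92.7% and 90.1% for Bmp4, 91.1% and 82.4% for Bmp7, 90.8% and 99.0% for Grem1, and 90.8% and 85.5% for Nog. Bmp2 was the ligand with the largest share outside the lineage in Control, since macrophages, dendritic cells and osteoclasts together held 22.8% of its UMIs there and 11.9% in GA. Shares of Id1 differed most between the libraries. The lineage held 51.7% of its UMIs in Control and 13.9% in GA, while neutrophils held 22.3% and 58.6%. These shares move with the number of cells of each class as well as with the level per cell, so the levels by class are given gene by gene.

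**Figure D1:**
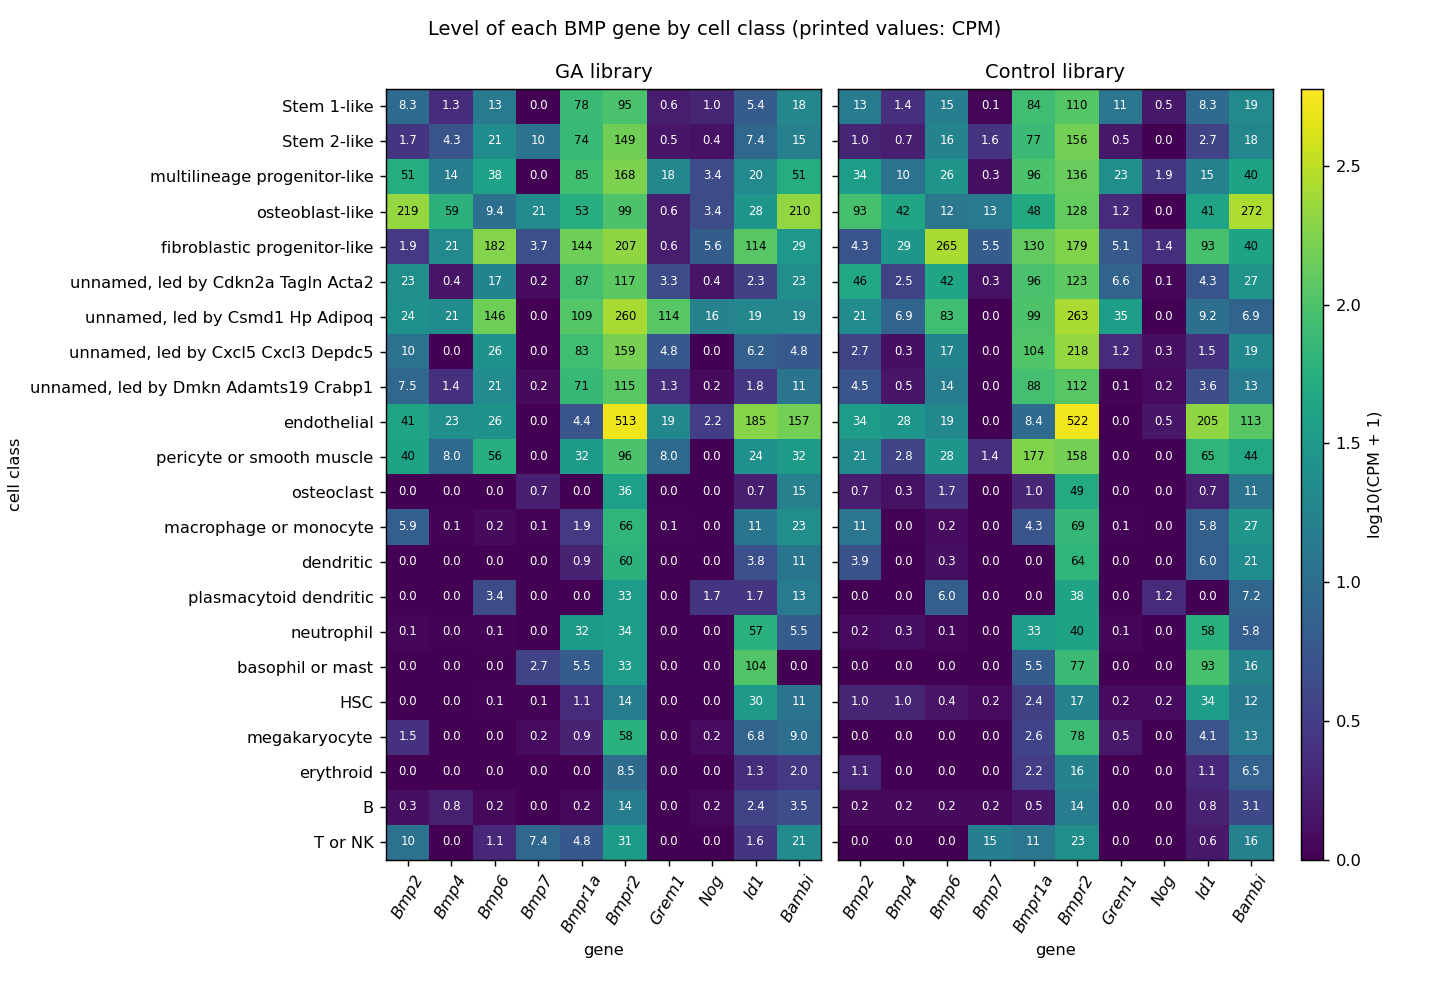
Heat map of the level of each of the 10 BMP genes (columns) in 22 cell classes (rows) in the GA library (left) and the Control library (right). Printed values are CPM, colours are log10(CPM + 1), and values should be compared down a column, since 3′ counts of different genes are not on 1 scale. The highest Bmp2 and Bambi cells in both panels are the osteoblast-like row, the highest Bmpr2 and Id1 cells the endothelial row, and the highest Bmp6 cells the fibroblastic progenitor-like row.

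**Figure D2:**
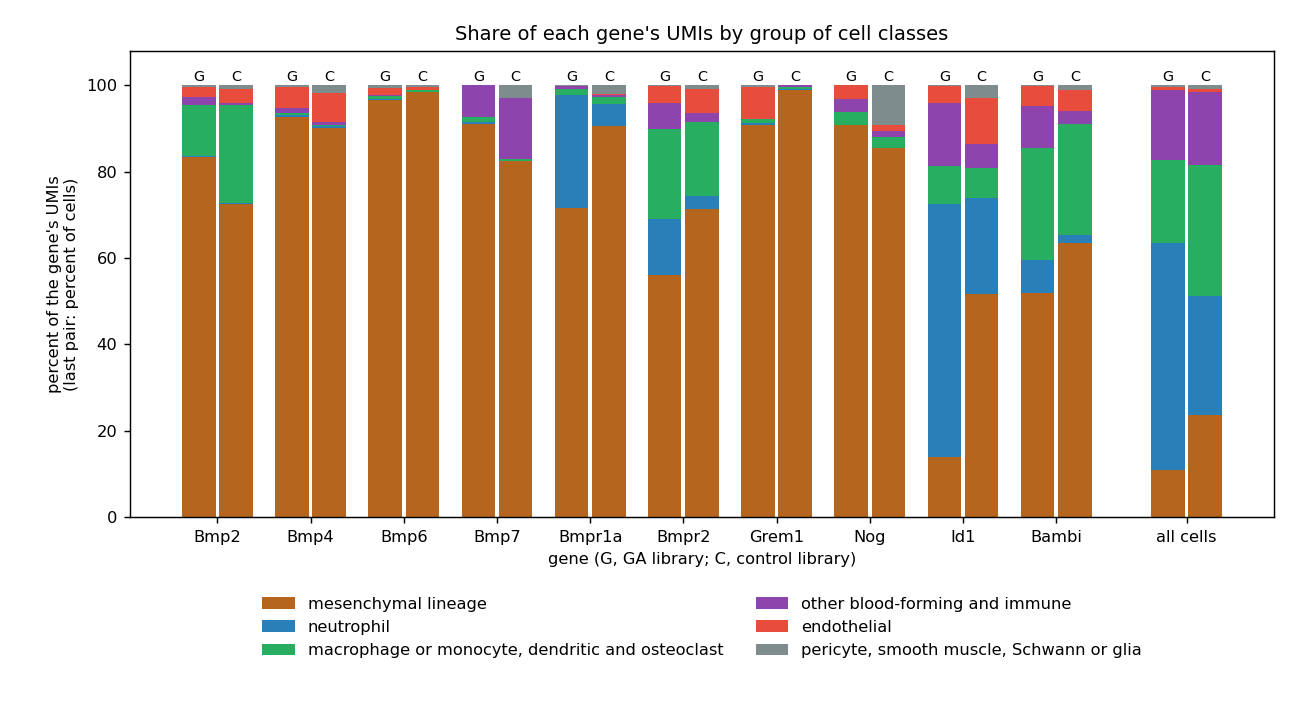
Stacked bars of the percent of each gene's UMIs that came from 6 groups of cell classes, for the GA library (G) and the Control library (C), with the percent of all cells in the last pair of bars. Mesenchymal lineage cells are the largest part of every ligand and antagonist bar, while the neutrophil part of Bmpr1a rises from 5.09% in Control to 26.3% in GA beside a neutrophil share of cells of 27.6% and 52.6%.

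Bmp2 (mm10 chromosome 2, 133552159 to 133562885, plus strand), a ligand that drives osteoblast differentiation and is required for fracture healing, was highest in osteoblast-like cells of both libraries. There it stood at 219 CPM in GA (203 to 236, 701 UMIs in 87 cells) and 92.7 CPM in Control (81.4 to 105, 240 UMIs in 67 cells). These intervals were well apart from the next class in each library, which was the multilineage progenitor-like class in GA at 51.5 CPM and, in Control, an unnamed lineage cluster led by Cdkn2a, Tagln and Acta2 at 45.6 CPM. In Control, multilineage progenitor-like (34.0 CPM) and endothelial cells (33.6 CPM) followed with overlapping intervals, as did multilineage progenitor-like (51.5 CPM) and endothelial cells (41.2 CPM) in GA. Within the multilineage progenitor-like class, Bmp2 lay in the cluster led by Ibsp, Fat3 and Alpl, at 73.6 CPM in GA and 46.2 CPM in Control, rather than in the cluster led by Matn4, Cxcl14 and Lgr5, at 8.52 and 6.13 CPM. The 5 highest cells of the class held 213 of its 320 UMIs in GA and 201 of 587 in Control.

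The GA over Control log2 ratio of Bmp2 in osteoblast-like cells was 1.24 (1.02 to 1.46), but it rested on few cells. A Bmp2 UMI was seen in 46 of 87 GA cells and 36 of 67 Control cells, a single GA cell held 140 UMIs, and the 5 highest cells held 49.4% of the UMIs in GA and 62.5% in Control. Averaging the CPM of single cells gave 186 in GA and 156 in Control. After thinning every cell to 2000 UMIs, 16.5% of GA and 21.2% of Control osteoblast-like cells had a Bmp2 UMI (52.9% and 53.7% before thinning, at median depths of 38850 and 39348 UMIs), and the log2 ratio of the thinned counts was −0.075. In B cells, which are not known to make Bmp2, the thinned shares were 0.343% and 0% (up to 0.637%) and the unthinned shares 0.342% and 0.173%, at median depths of 6472 and 5934 UMIs. The shares of positive cells thus had overlapping intervals in the 2 libraries, while the summed UMIs did not. The cluster led by Cdkn2a, Tagln and Acta2 went the other way, at 23.2 CPM in GA and 45.6 CPM in Control, a log2 ratio of −0.97 (−1.28 to −0.68). That ratio rested on few cells too. The 5 highest cells of each library held 101 of 120 UMIs in GA and 200 of 412 in Control. In T or NK cells of the GA library, all 19 Bmp2 UMIs were in 1 cell, so that value of 10.1 CPM says nothing of the class.

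Among macrophages or monocytes, Bmp2 stood at 5.92 CPM in GA (186 UMIs) and 11.4 CPM in Control (459 UMIs), a log2 ratio of −0.94 (−1.20 to −0.69). Free RNA of mesenchymal cells, estimated from the collagen transcripts found in the same cells, would have given 0.0943 and 0.0944 CPM. The UMIs lay mainly in the cluster led by C1qa, C1qb, C1qc and Apoe, the complement and lipid genes of resident-type macrophages, at 17.7 CPM in GA (14.7 to 21.0) and 23.6 CPM in Control (21.1 to 26.2). The cluster led by Pf4, Cd36 and Arg1 had 4.59 and 5.21 CPM, and the cluster led by F13a1, Ccr2 and Ly6c2, genes of recruited monocytes, 0.149 and 0.184 CPM. The C1qa cluster made up 25.1% of the class in GA and 35.3% in Control and the F13a1 cluster 38.7% and 19.7%. Within the C1qa cluster the log2 ratio was −0.41 (−0.72 to −0.11), smaller than that of the class as a whole.

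Bmp4 (chromosome 14, 46383520 to 46390669, minus strand), a close relative of Bmp2 that also signals to osteoblast precursors, was likewise highest in osteoblast-like cells, at 59.3 CPM in GA (51.2 to 68.4, 190 UMIs) and 42.1 CPM in Control (34.6 to 50.8, 109 UMIs). The intervals just failed to overlap, and the log2 ratio was 0.49 (0.15 to 0.85), but only 10 and 9 UMIs were left after thinning, and the 5 highest cells held 53.7% of the UMIs in GA and 77.98% in Control. Fibroblastic progenitor-like cells (20.6 CPM in GA and 28.5 CPM in Control) and endothelial cells (23.4 and 28.0 CPM) came next and could not be ordered against each other in either library, nor against the 8 UMIs of the Csmd1, Hp and Adipoq cluster (21.2 CPM) in GA. Multilineage progenitor-like cells were lower in Control, at 10.1 CPM. In GA they stood at 13.7 CPM (10.9 to 16.9), and this interval overlapped those of the fibroblastic progenitor-like and endothelial cells. Stem 2-like cells were marked by Clec3b, Cd34 and Dpt. Thy1, from the same marker list, was lower in them than over the lineage (161 against 213 CPM in GA, 115 against 143 CPM in Control). These cells carried little Bmp4 but showed the highest ratio. They held 57 UMIs in 31 of 280 GA cells (4.33 CPM) and 15 UMIs in 11 of 428 Control cells (0.716 CPM), a log2 ratio of 2.60 (1.76 to 3.52). It was seen in both Stem 2-like clusters led by Pi16 and C3, at 5.53 against 0.884 CPM and 6.22 against 1.33 CPM, while the Stem 2-like cluster led by Egfl6 and Cxcl14 had 5 UMIs in GA and 0 in Control. These are few molecules, and after thinning to 2000 UMIs a single cell of each library kept a Bmp4 UMI.

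Bmp6 (chromosome 13, 38345107 to 38500302, plus strand), an osteogenic ligand also known for controlling hepcidin and iron, had its highest level in fibroblastic progenitor-like cells. They stood at 182 CPM in GA (162 to 204, 292 UMIs in 45 cells) and 265 CPM in Control (257 to 274, 4219 UMIs in 358 cells), and the intervals did not overlap (log2 ratio −0.54, −0.72 to −0.37). In GA, however, 133 of the 292 UMIs were in 5 cells, and 28 of the 45 cells had any. Fibroblastic progenitor-like cells held 4219 of the 5994 Bmp6 UMIs of Control but 292 of the 1369 of GA, where Stem 2-like (280), Dmkn cluster (242) and multilineage progenitor-like cells (236) held nearly as many. An unnamed cluster led by Csmd1, Hp and Adipoq, which also carried Cxcl12 and Lepr, followed at 146 and 83.1 CPM. In GA its interval overlapped that of the fibroblastic progenitor-like cells, whereas in Control it lay below. The GA value of this cluster rested on 55 UMIs in 8 of 27 cells, 50 of them in 5 cells, at a median depth of 7974 UMIs. The other lineage classes ranged from 9.36 to 38.0 CPM in GA and from 11.6 to 41.5 CPM in Control. Osteoblast-like cells, the highest class for Bmp2 and Bmp4, were among the lowest of the lineage for Bmp6, with 30 UMIs in each library (9.36 and 11.6 CPM), 29 and 24 of them in 5 cells. Bmp6 was somewhat higher in GA in Stem 2-like cells (21.3 against 16.3 CPM, log2 ratio 0.39, 0.15 to 0.62, but −0.12 with mitochondrial shares limited to 10%) and multilineage progenitor-like cells (38.0 against 26.3 CPM, 0.53, 0.30 to 0.76, but −0.13 with the 7 and 21 UMIs left after thinning), and lower in the Cdkn2a, Tagln and Acta2 cluster (17.0 against 41.5 CPM, −1.29, −1.64 to −0.95). Of the 10 lineage classes, 5 were higher and 5 lower in GA. All 5 higher classes had intervals above 0, whereas 2 of the lower classes had intervals below 0.

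Bmp7 (chromosome 2, 172868012 to 172940321, minus strand), a ligand known for kidney, eye and bone development, was found in few cells. Over the lineage it stood at 4.53 CPM in GA (214 UMIs in 106 of 915 cells) and 1.69 CPM in Control (164 UMIs in 80 of 1776 cells), a log2 ratio of 1.42 (1.12 to 1.72). Stem 2-like cells held most of the GA UMIs but not of the Control UMIs, with 138 UMIs in 55 of 280 GA cells (10.5 CPM) and 34 UMIs in 21 of 428 Control cells (1.62 CPM), a log2 ratio of 2.69 (2.14 to 3.28). No GA Stem 2-like cell held more than 8 of them. As for Bmp4, the UMIs lay in the Pi16 and C3 clusters, at 14.3 against 1.99 CPM and 16.8 against 2.85 CPM, and the Egfl6 cluster had 0 UMIs in GA and 1 in Control. The share of Stem 2-like cells with a Bmp7 UMI was 19.6% in GA and 4.91% in Control at median depths of 45138 and 45988 UMIs, and 1.79% and 0.467% after thinning, with overlapping intervals. In B cells the share was 0% and 0.173% unthinned and 0% in both libraries after thinning.

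Osteoblast-like cells had the highest Bmp7 level in GA, 20.9 CPM (67 UMIs in 44 of 87 cells), and stood at 12.8 CPM in Control (33 UMIs in 23 of 67 cells), a log2 ratio of 0.71 (0.09 to 1.36). In contrast to Bmp2, these UMIs were spread over many cells, with at most 4 in any cell. Fibroblastic progenitor-like cells held the largest number of Control UMIs, 88 (5.54 CPM), against 6 in GA (3.75 CPM, log2 ratio −0.56, −2.05 to 0.62). T or NK cells were the only immune class with more than 2 Bmp7 UMIs in a library, 14 UMIs in 13 of 192 GA cells (7.42 CPM) and 26 UMIs in 20 of 223 Control cells (14.7 CPM), against 0.0145 and 0.0114 CPM that mesenchymal free RNA would give. In Control this interval overlapped that of the osteoblast-like cells, so the order of those classes could not be told.

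**Figure D3:**
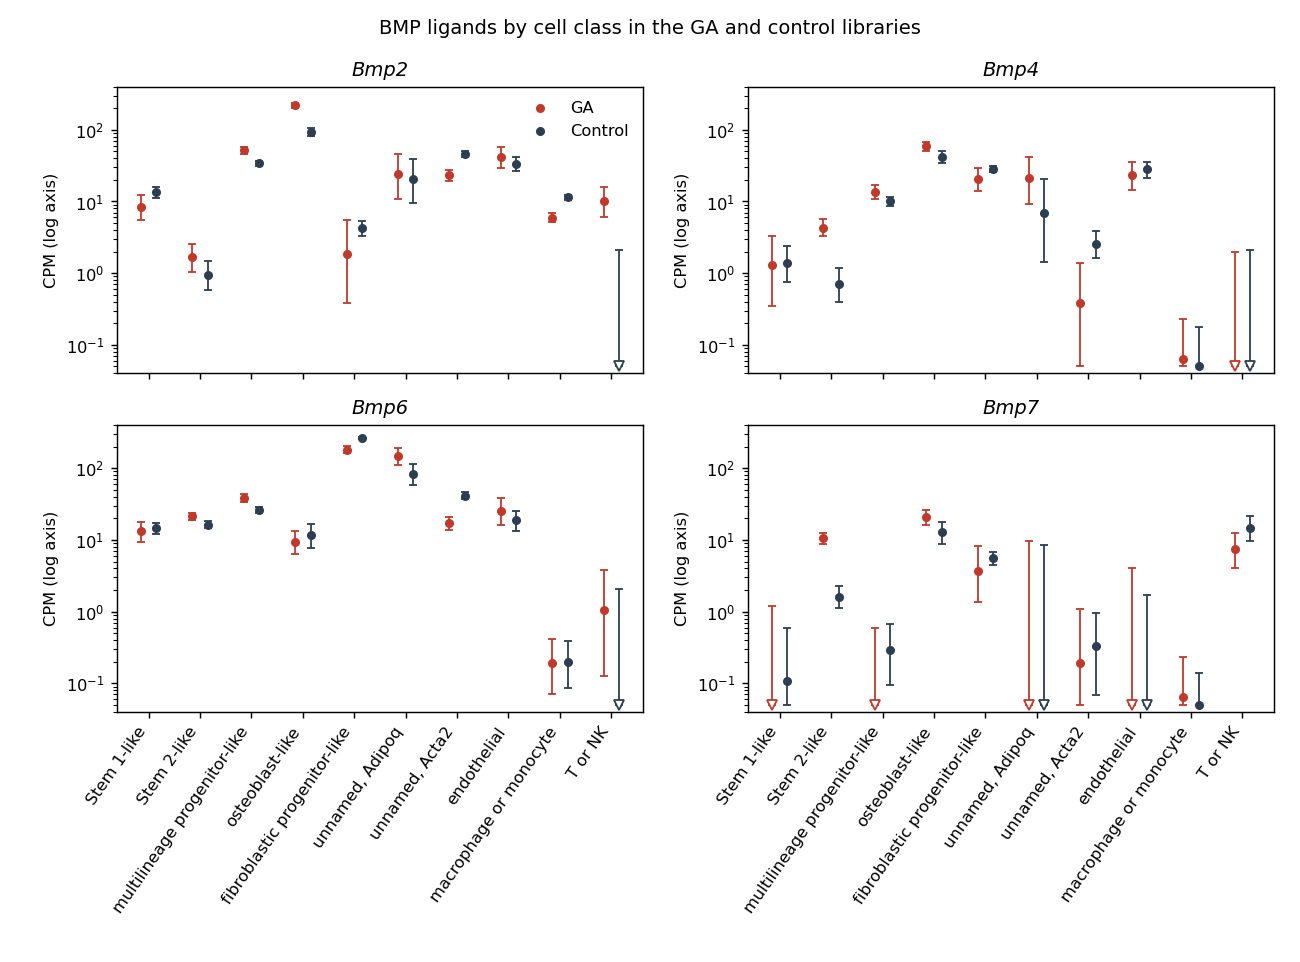
Levels of Bmp2, Bmp4, Bmp6 and Bmp7 in 10 cell classes, in CPM on a log axis, with 95% Poisson intervals for counting error. Points are the GA (red) and Control (dark) libraries, open triangles mark classes with 0 UMIs, and values or interval ends under 0.05 CPM are drawn at 0.05. The pairs of points lie far apart for Bmp4 and Bmp7 in Stem 2-like cells (4.33 against 0.716 CPM and 10.5 against 1.62 CPM).

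Bmpr1a (chromosome 14, 34410734 to 34503341, minus strand), the type I receptor ALK3, was broadly present in the lineage, at 77.7 CPM in GA (3673 UMIs) and 94.2 CPM in Control (9120 UMIs). Lineage classes ranged from 53.1 CPM in osteoblast-like to 144 CPM in fibroblastic progenitor-like cells in GA, and from 47.9 to 130 CPM in the same classes in Control, leaving aside the 3 Control cells of the cluster led by S100a8. Log2 ratios of the lineage classes ranged from −0.72 to 0.15, and 7 of 10 were lower in GA. The −0.72 (−1.52 to 0.17) came from that S100a8 cluster, and the next lowest was −0.33 in the cluster led by Cxcl5 and Cxcl3. Pericytes or smooth muscle cells were the highest profiled class in Control (177 CPM), but the 23 GA cells of that class had a median of 1911 UMIs and only 4 Bmpr1a UMIs, too few to compare. Endothelial cells had little Bmpr1a, 4.45 CPM in GA (4 UMIs) and 8.41 CPM in Control (18 UMIs). Gm17110 overlaps Bmpr1a on the opposite strand.

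Among immune cells, most Bmpr1a UMIs were in neutrophils. They stood at 31.7 CPM in GA (1350 UMIs) and 32.8 CPM in Control (513 UMIs), a log2 ratio of −0.05 (−0.20 to 0.10), against 0.317 and 0.669 CPM from mesenchymal free RNA. All 8 neutrophil clusters carried it, from 16.1 to 62.1 CPM in GA and from 12.6 to 78.2 CPM in Control. After thinning, 5.85% of GA and 5.83% of Control neutrophils had a Bmpr1a UMI (18.1% and 15.2% unthinned, at median depths of 7059 and 5091.5 UMIs), compared with 0% and 0.347% of B cells (0.171% and 0.518% unthinned). The level per neutrophil thus hardly differed between the libraries, while the neutrophil share of all Bmpr1a UMIs was 26.3% in GA and 5.09% in Control. None of the 4 genes with enough UMIs in neutrophils passed 2-fold in either direction, where 6.13% of all genes did. In macrophages or monocytes Bmpr1a was low, at 1.91 and 4.31 CPM (log2 ratio −1.18, −1.62 to −0.74, with 8 and 11 UMIs left after thinning), against 0.265 and 0.558 CPM from free RNA. Within the C1qa cluster it was 4.74 CPM in GA and 9.44 CPM in Control. The cluster led by Pf4, Cd36 and Arg1 had 1.66 and 1.64 CPM, and the cluster led by F13a1, Ccr2 and Ly6c2 0.521 and 0.368 CPM (7 and 2 UMIs). Bmpr1a was the only 1 of the 5 members with enough UMIs in that class to pass 2-fold, where 3.05% of all genes tested were at least 2-fold lower. With the macrophage clusters weighted as in Control, a calculation added after the data had been seen, its ratio kept its direction but fell below 2-fold. In T or NK cells Bmpr1a had 9 UMIs in GA and 20 in Control (4.77 and 11.3 CPM).

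Bmpr2 (chromosome 1, 59763400 to 59879014, plus strand), the type II receptor, was the only 1 of the 10 with UMIs in every profiled class of both libraries. Endothelial cells, in which Bmpr2 is known for its role in pulmonary hypertension, were highest at 513 CPM in GA (467 to 562) and 522 CPM in Control (492 to 553), 1.98 times the next class in each library. The log2 ratio was −0.02 (−0.18 to 0.13). In the thinned cells 72.4% of GA and 58.8% of Control endothelial cells had a Bmpr2 UMI (69.0% and 100% unthinned, at median depths of 15278.5 and 31726 UMIs), with overlapping intervals, against 2.92% and 2.77% of B cells (9.23% and 8.46% unthinned). The lineage stood at 135 and 146 CPM. Its ratios were small in every class, from −0.72 to 0.31, and the outermost, −0.72, came from the cluster with 3 Control cells.

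Among the antagonists, Grem1 (chromosome 2, 113746164 to 113758646, minus strand), which binds BMP2, BMP4 and BMP7 and marks skeletal stem cells of long bones, was concentrated in few cells. In the Csmd1, Hp and Adipoq cluster it stood at 114 CPM in GA, the highest level there, and 34.6 CPM in Control (19.4 to 57.1), where the interval overlapped that of multilineage progenitor-like cells (20.8 to 25.4). This was 43 UMIs in 6 of 27 cells and 15 UMIs in 3 of 38 cells. Multilineage progenitor-like cells held the largest number of UMIs, 114 in 26 of 131 GA cells (18.3 CPM) and 397 in 101 of 360 Control cells (23.0 CPM), a log2 ratio of −0.33 (−0.64 to −0.02). In Stem 1-like cells, the proliferating class with Mki67 at 346 and 341 CPM, Grem1 had 2 UMIs in GA and 104 in Control (0.640 and 11.2 CPM). Of the 104, 87 were in 5 cells and 52 in 1. All 17 endothelial Grem1 UMIs of the GA library were in 1 cell. Over the whole lineage Grem1 stood at 4.40 CPM in GA and 7.03 CPM in Control, a log2 ratio of −0.68 (−0.91 to −0.45), while the mean of single-cell CPM was 8.35 and 7.22, so the direction depended on how cells were weighted.

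Nog (chromosome 11, 89300638 to 89302332, minus strand), whose product Noggin binds BMPs and keeps them from their receptors, was scarce. The lineage held 59 UMIs in 31 of 915 GA cells (1.25 CPM) and 65 UMIs in 45 of 1776 Control cells (0.672 CPM), a log2 ratio of 0.89 (0.36 to 1.43). Of 22 profiled classes, 10 in GA and 12 in Control had no Nog UMI. In multilineage progenitor-like cells it stood at 3.38 CPM in GA (21 UMIs) and 1.86 CPM in Control (32 UMIs), and in fibroblastic progenitor-like cells at 5.62 CPM (9 UMIs) and 1.38 CPM (22 UMIs), a log2 ratio of 2.02 (0.72 to 3.20). Osteoblast-like cells had 11 UMIs in 3 GA cells, 8 of them in 1 cell, and 0 in Control, which allows up to 3 UMIs. At this depth, none of the 5 highest classes could be ordered against its neighbour for Nog.

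Id1 (chromosome 2, 152736251 to 152737410, plus strand), an inhibitor of helix-loop-helix factors and a direct transcriptional target of SMAD1 and SMAD5, was highest in endothelial cells, at 185 CPM in GA (158 to 215) and 205 CPM in Control (186 to 225). Fibroblastic progenitor-like cells (114 and 92.7 CPM) and basophils or mast cells (104 and 93.3 CPM) followed with overlapping intervals. Neutrophils came next among the large classes at 56.5 CPM in GA (2410 UMIs) and 57.6 CPM in Control (901 UMIs), a log2 ratio of −0.03 (−0.14 to 0.08), where mesenchymal free RNA would give 0.0492 and 0.154 CPM. Of the 8 neutrophil clusters, 2 were at least 2-fold higher in GA, the cluster led by Retnlg, S100a9 and S100a8 with Mmp9 at 52.3 against 25.7 CPM (1.03, 0.61 to 1.46, 314 and 56 UMIs) and the cluster led by Cstdc4 and Stfa2l1 at 59.9 against 17.9 CPM (1.74, 0.75 to 2.91, 91 and 9 UMIs), and the other 6 ranged from −0.31 to 0.28. The class labelled HSC, which holds blood progenitors marked by Kit and Cd34, had 30.1 and 34.3 CPM. After thinning, 9.57% of GA and 7.53% of Control neutrophils had an Id1 UMI (25.7% and 20.01% unthinned), compared with 0.515% and 0.347% of B cells (2.22% and 0.864% unthinned).

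Inside the lineage, Id1 went in different directions in different classes. Fibroblastic progenitor-like (log2 ratio 0.29, 0.06 to 0.52, but −0.63 with each cell named by its highest marker score) and multilineage progenitor-like cells (20.1 against 15.4 CPM, 0.38, 0.06 to 0.69) were slightly higher in GA, osteoblast-like cells were lower (27.8 against 40.6 CPM, −0.55, −0.97 to −0.13, but 0.47 with doublets kept), and Stem 2-like cells were higher (7.37 against 2.72 CPM, 1.44, 0.95 to 1.94). In Stem 2-like cells the UMIs lay mainly in the Egfl6 and Cxcl14 cluster, at 17.9 CPM in GA and 4.98 CPM in Control, and not in the Pi16 clusters where Bmp4 and Bmp7 were found. Of the 97 GA UMIs of the class, 59 came from 5 cells. The ratio of the class was below 2-fold under 5 of the other settings tried, from 0.51 to 0.93. Within the fibroblastic progenitor-like class, 2 clusters differed in direction, with 203 against 146 CPM (0.47, 0.23 to 0.71) in the cluster led by Ptgds and Cldn11 (28 GA and 164 Control cells) and 16.3 against 59.0 CPM (−1.85, −2.82 to −1.04) in the cluster led by Eln and Col4a1 (16 and 170 cells). Over the whole lineage Id1 was lower in GA, at 12.1 against 21.6 CPM (−0.84, −0.98 to −0.71).

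In macrophages or monocytes the class value of Id1 and that of the cluster with most of its UMIs pointed in different directions. The class stood at 11.1 CPM in GA (350 UMIs) and 5.85 CPM in Control (236 UMIs), a log2 ratio of 0.93 (0.69 to 1.17). The F13a1, Ccr2 and Ly6c2 cluster, which held most Id1 UMIs, had 21.4 CPM in GA (19.0 to 24.0) and 27.4 CPM in Control (23.2 to 32.2), a log2 ratio of −0.36 (−0.65 to −0.06). The other clusters went the same way as the class, the Pf4 and Arg1 cluster at 2.93 and 1.69 CPM (0.80, 0.04 to 1.55) and the C1qa cluster at 3.90 and 3.21 CPM (0.28, −0.45 to 0.99). As given above, the F13a1 cluster made up 38.7% of the class in GA and 19.7% in Control.

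**Figure D4:**
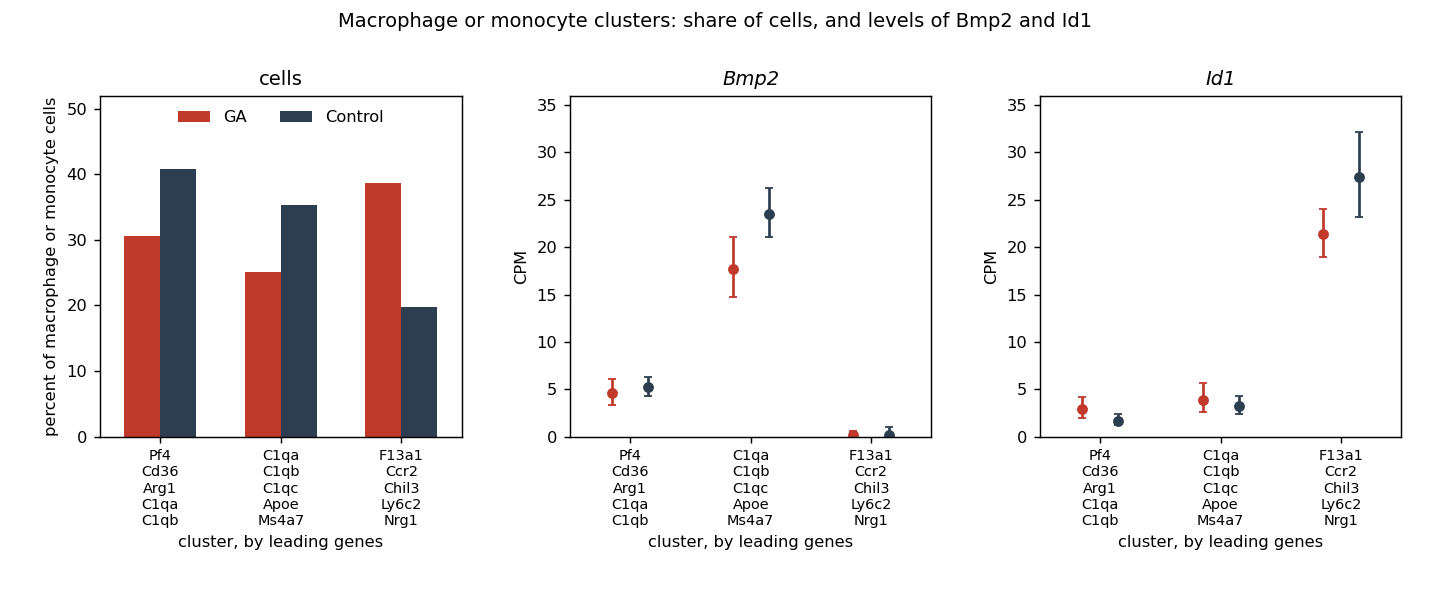
The 3 macrophage or monocyte clusters of at least 100 cells, named by their leading genes, in the GA (red) and Control (dark) libraries. Bars give the percent of the class in each cluster from 0, and points the levels of Bmp2 and Id1 in CPM with 95% Poisson intervals. Bmp2 is highest in the C1qa cluster (17.7 and 23.6 CPM) and Id1 in the F13a1 cluster (21.4 and 27.4 CPM), and the F13a1 cluster is the larger part of the class in GA.

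Bambi, a transmembrane pseudoreceptor that resembles a type I receptor without its kinase domain and is itself induced by BMP and Wnt signals, peaked in the same class as Bmp2. Osteoblast-like cells stood at 210 CPM in GA (194 to 226, 672 UMIs) and 272 CPM in Control (252 to 293, 703 UMIs), a log2 ratio of −0.37 (−0.53 to −0.22). Bambi was found in 80.5% of these cells in GA and 83.6% in Control, a larger share than Bmp2 had. After thinning it was in 31.8% and 34.8%, against 0.686% and 0.867% of B cells (3.42% and 3.11% unthinned). Endothelial cells were second at 157 CPM in GA (132 to 185) and 113 CPM in Control (99.7 to 129), a ratio in the other direction (0.47, 0.16 to 0.77). Multilineage progenitor-like cells had 51.1 and 39.7 CPM. Macrophages or monocytes, with 22.6 and 27.1 CPM, carried it in all 3 of their large clusters, from 18.5 to 25.6 CPM in GA and from 18.8 to 31.5 CPM in Control.

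Across the mesenchymal lineage as a whole, 2 of the 10 genes differed by 2-fold or more between GA and Control. Bmp7 was higher in GA and Bmp6 lower (28.0 against 61.0 CPM, log2 ratio −1.13, −1.21 to −1.04). Among all 17698 genes with at least 20 UMIs in the lineage, 4.05% were at least 2-fold higher and 4.31% at least 2-fold lower, so that 1 of 10 in each direction is a count of single genes and no property of the list. The median log2 ratio of the 10 genes was −0.05, and that of all genes with at least 200 UMIs −0.02. By class, 3 of the 8 genes with enough UMIs were at least 2-fold higher in Stem 2-like cells (Bmp4, Bmp7 and Id1, where 3.72% of all genes were). In the Cdkn2a, Tagln and Acta2 cluster 3 of 8 were at least 2-fold lower, where 4.38% of all genes were. They were Bmp4 (2 GA UMIs), Bmp6, and Grem1 (17 GA UMIs, in 5 cells). All 8 had ratios below 0, but only 4 had intervals below 0. No share of all genes below 0 stands beside this count. The median of the 8 was −0.93, where that of all genes with at least 200 UMIs was −0.05. Of the 50 further BMP pathway genes described below, 36 had enough UMIs in this cluster. Among these, 21 were higher and 15 lower in GA, with a median of 0.12. In osteoblast-like cells 1 of 8 was at least 2-fold higher (Bmp2, where 3.69% were), and in multilineage progenitor-like cells none of 9 passed 2-fold in either direction, where 6.24% did. Fibroblastic progenitor-like cells, with 45 GA cells, had 1 of 10 higher (Nog, where 6.90% were) and 2 lower (Bmp2, with 3 GA UMIs, and Grem1, with 1 GA UMI, where 6.58% were). In Stem 1-like cells Grem1 was lower among 7 genes, where 3.50% were. In endothelial cells none of 7 passed 2-fold, where 10.6% of all genes did.

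The 2 libraries differed in the make-up of the lineage, and its part in the lineage-wide values was not tested. Fibroblastic progenitor-like cells were 4.92% of the lineage in GA and 20.2% in Control, osteoblast-like cells 9.51% and 3.77%, and Stem 2-like cells 30.6% and 24.1%. With GA levels of each class weighted by the make-up of the Control lineage, a calculation added after the data had been seen, the log2 ratio of Bmp6 was −0.29 and that of Id1 0.27. Without the fibroblastic progenitor-like cells they were 0.11 (−0.00 to 0.22) and 0.15 (−0.04 to 0.34). Bmp4 was close to equal over the lineage (8.59 against 8.28 CPM, 0.05) and with the Control make-up (0.09). Without the fibroblastic progenitor-like cells it was higher in GA (0.92, 0.71 to 1.14). Bmp7 stayed higher under both calculations (1.04 and 2.28). Bmp2, at 0.79 (0.69 to 0.90) over the lineage, was 0.37 and 0.65. Of the Bmp2 UMIs of the lineage, however, 406 of 1307 in GA and 276 of 1543 in Control were in 5 cells. The ratios of Bmpr1a (−0.09 and −0.21) and Bmpr2 (0.02 and −0.08) remained small. Grem1 was −0.68 over the lineage and −0.52 and −0.71 under the 2 calculations. For Nog these values were 0.89, 1.52 and 1.04, and for Bambi 0.02, −0.18 and 0.10.

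**Figure D5:**
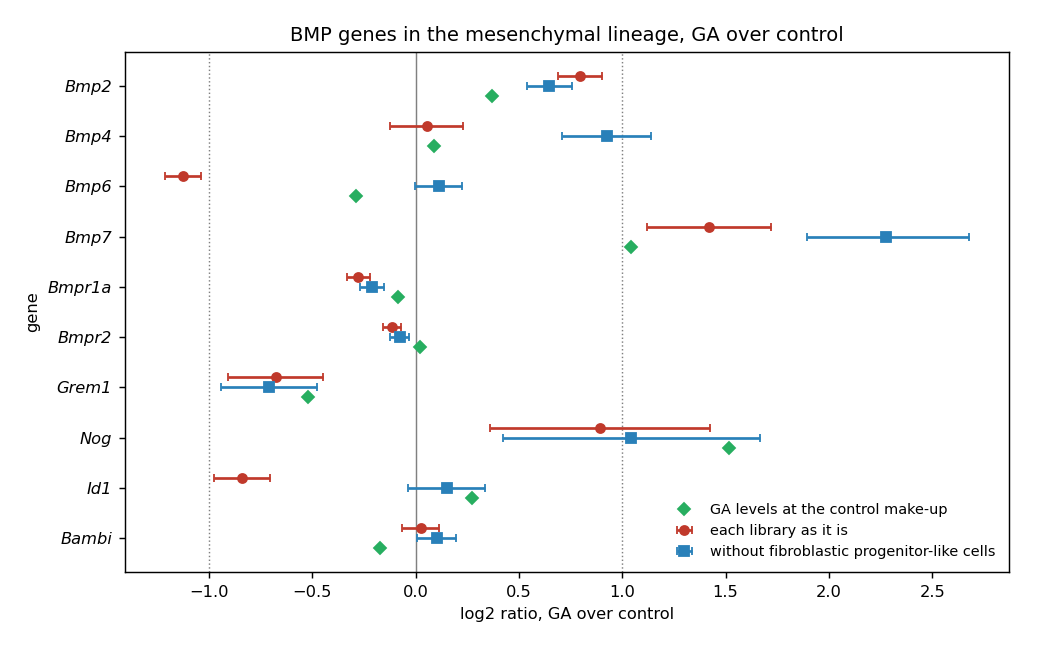
Log2 ratio of GA over Control for the 10 genes in the mesenchymal lineage. Circles show each library as it is and squares the lineage without fibroblastic progenitor-like cells, both with exact 95% intervals for counting error, and diamonds show GA levels weighted by the Control make-up, without an interval. Dotted lines mark 2-fold. The symbols for Bmp6 and Id1 lie on different sides of each other, from −1.13 to 0.11 and from −0.84 to 0.27, whereas those for Bmp7 are all above 1.

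Beyond the 10 genes, a list of 50 further BMP pathway genes was read in the lineage, of which 42 had at least 20 UMIs. Of these, 1 was at least 2-fold higher and 2 at least 2-fold lower in GA, beside 4.05% and 4.31% of all genes, with a median log2 ratio of 0.06. The gene that was higher was the ligand Bmp3, which is known to restrain osteogenic BMP signals, at 28.7 CPM in GA and 8.16 CPM in Control (1.81, 1.69 to 1.94). It was highest in osteoblast-like cells, at 99.6 and 82.3 CPM, and differed more in Stem 2-like cells, at 50.02 and 20.4 CPM (1.29, 1.11 to 1.47). The ligand Bmp5 was lower (6.01 against 19.9 CPM, −1.73, −1.91 to −1.55). In fibroblastic progenitor-like cells, the lineage class where it was highest, it stood at 92.4 CPM in GA and 98.5 CPM in Control, and Control pericytes or smooth muscle cells had 193 CPM. The target Hey1, a helix-loop-helix repressor, was also lower over the lineage and nearly equal in those cells, with 2.62 and 6.66 CPM over the lineage (−1.35, −1.63 to −1.07) and 36.2 and 34.2 CPM in those cells.

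The most abundant receptors of the list in the lineage were Tgfbr3 (betaglycan, a co-receptor), at 255 and 242 CPM, and Bmpr1b (a second type I receptor), at 100 and 107 CPM. Among extracellular modulators they were the follistatin-like gene Fstl1, at 2366 and 1924 CPM, and Bmp1 (a protease that cleaves procollagen and the antagonist Chordin), at 511 and 434 CPM. Over both libraries, the mediators with the highest level were Smurf2, a ubiquitin ligase, at 120 and 115 CPM, and Smad4 at 95.7 and 104 CPM, closely followed by Smad7 (95.7 and 96.3 CPM) and Smad1 (87.7 and 106 CPM). Of the targets, Id3 had 167 and 206 CPM and Id2 48.1 and 62.8 CPM. None of these 8 passed 2-fold over the lineage.

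Within single lineage classes, genes of the list with at least 20 UMIs passed 2-fold in both directions, as in the Csmd1, Hp and Adipoq cluster (3 higher and 4 lower of 30). No share of all genes stands beside these results by class, so nothing about the list is read from their directions. The further genes with at least 200 UMIs past 2-fold, named here, were all higher in GA. In multilineage progenitor-like cells these were the protease Tll1 (38.1 against 14.2 CPM, 1.42), the inhibitory Smad6 (19.3 against 9.57 CPM, 1.01) and the target Id4 (19.1 against 5.68 CPM, 1.75). In fibroblastic progenitor-like cells they were the ligand Gdf10 (199 against 39.4 CPM, 2.34) and Tgfbr3 (165 against 79.3 CPM, 1.06). Bmp3 was also higher in the unnamed cluster led by Dmkn, Adamts19 and Crabp1 (26.8 against 5.50 CPM, 2.28), Crim1 in the cluster led by Cxcl5 and Cxcl3 (194 against 71.3 CPM, 1.45), and Id3 in the Csmd1, Hp and Adipoq cluster (379 against 155 CPM, 1.29). In the cluster led by S100a8, with 3 Control cells, Tgfbr3 (1.57) and Bmp1 (1.49) were higher.

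Outside the lineage, genes of the list with at least 20 UMIs also went both ways, as in endothelial cells (2 at least 2-fold higher and 1 lower of 24). Those with at least 200 UMIs in a class and past 2-fold, named here, were all lower in GA. No share of all genes at 200 UMIs stands beside them. Fstl1, a mesenchymal transcript, was lower in GA in the HSC (3.99 against 71.7 CPM), erythroid (9.16 against 115 CPM) and megakaryocyte classes (9.61 against 81.9 CPM). The part of mesenchymal free RNA in these Fstl1 values was not tested. Id2 was lower in erythroid cells (34.7 against 87.8 CPM). In shallow GA cells, Smad7 was lower in pericytes or smooth muscle cells (71.9 against 270 CPM, 9 GA UMIs) and Id3 in Schwann or glial cells, where 14 GA cells held 1 Id3 UMI.

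The genes whose levels most resembled each member were sought over 44 profiles, 22 classes in 2 libraries, which share library and depth, so the correlations are descriptions. Among the 10 themselves, the closest pairs were Bmp6 with Bmpr2 (Pearson r = 0.79) and with Bmpr1a (0.79), and Bmp2 with Bambi (0.74), while Bmp7 was the least like the others (0.06 with Bmpr2 and −0.14 with Grem1). Bmp6 had the closest neighbours of all, Six2 (0.94), Nhs (0.93) and Lamb2 (0.93). Bmpr1a was followed by Fam114a1 (0.91), Ccdc80 (0.91) and Numbl (0.91), Bmp4 by Fam160a1 (0.89), Sybu (0.88) and Foxc1 (0.88), and Bmpr2 by Spaca6 (0.89), Lrrc58 (0.89) and its own signal mediator Smad1 (0.89). For Bmp2 they were Unc5b (0.82), Ppfia2 (0.82) and Pdk4 (0.82), and Unc5b recurred for Bambi (0.77) after Hapln3 (0.79) and Cpe (0.78). The remaining neighbours were Mme (0.79), Faxc (0.79) and Heph (0.79) for Grem1, Sncaip (0.78), Gm31641 (0.73) and B430010I23Rik (0.71) for Id1, Fstl4 (0.74), Arl4d (0.74) and 4930403P22Rik (0.72) for Bmp7, and Gm32531 (0.72), Nalcn (0.70) and Samd5 (0.69) for Nog.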

How the data were processed

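Single-cell suspensions were profiled with the 10x Genomics Chromium 3′ protocol, and the authors aligned reads to mm10 and deposited raw UMI counts per gene and barcode made with Cell Ranger (7.0.1 per the file headers). No column of the deposited count tables was left unmapped. Barcodes with 500 to 140000 UMIs, 200 to 9500 genes and at most 15% mitochondrial UMIs were kept. Scrublet called 0 and 39 doublets, under 0.5% of barcodes, so doublets were taken as the top-scoring barcodes up to a rate of 0.8% for every 1000 barcodes of the library's count table (656 GA and 540 Control cells left out). Cells were clustered with scanpy 1.11.5 (Pearson residuals with theta 100, 2000 variable genes without BMP genes, 50 components, Harmony over the libraries written in NumPy 2.4.6, 15 neighbours, Leiden resolution 1), giving 42 clusters and, from 2691 mesenchymal cells, 15 sub-clusters. Classes were named from marker lists; the naming thresholds were set after seeing the data. Names rebuilt in this way can differ from those of the study. Dendritic cells, whose leading genes include more macrophage than dendritic markers, were not compared between the libraries.

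For each class and library, UMIs were summed and divided by all UMIs (CPM), with exact Poisson intervals; ratios have exact conditional binomial intervals and are given from 20 UMIs over both libraries, and "2-fold" is a log2 ratio of 1 in size. Shares have exact binomial intervals, and a count of 0 allows up to 3. Intervals cover counting error only. Kept cells held 160570724 UMIs in GA and 183666732 in Control. For shares of cells with a UMI, cells were thinned to 2000 UMIs, leaving out 158 GA and 200 Control cells. Outside the lineage, free RNA was estimated from Col1a1, Col1a2 and Col3a1. For lineage classes, the alternative that subtracted free RNA used erythroid RNA scaled by haemoglobin transcripts. Named genes are the 10 members; of the pathway list, the 2 with the highest CPM of each role and those with at least 200 UMIs past 2-fold; and the 3 genes of highest Pearson correlation of log2(CPM + 1). Members and lists were chosen with earlier results of these data known. Coordinates are those of GENCODE gene models on mm10. No test between conditions was run, because each condition is 1 library. In 16 planned and 4 added alternatives, doublets, filters, clustering, naming, weighting of cells, scaling, free RNA and make-up were varied. The ratio calculation was also run on simulated class sums. These held only the Poisson counting error that the intervals assume. The simulation left out the gathering of UMIs in few cells, so it cannot show how the intervals fare with it.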

Additional observations from a re-analysis of the deposited data

Results flagged for a closer look

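Bmp4, Grem1 and Id1 had ratios that pointed in opposite directions in different cell classes, by 2-fold or more each way and with intervals on opposite sides of 0 (Bmp2, Bmp6, Bmpr2 and Bambi also had intervals on both sides of 0 within the lineage, but not with such intervals past 2-fold each way); the difference between the classes was not tested, since each condition is 1 library. Bmp4 was higher in GA in Stem 2-like cells (log2 ratio 2.60) and in the cluster led by Dmkn, Adamts19 and Crabp1 (1.52, 16 against 7 UMIs), and lower in the cluster led by Cdkn2a, Tagln and Acta2 (−2.72, 2 against 23 UMIs). Grem1 was higher in the cluster led by Csmd1, Hp and Adipoq (1.72) and lower in Stem 1-like (−4.13), fibroblastic progenitor-like (−3.03) and Cdkn2a, Tagln and Acta2 cells (−1.01). In the fibroblastic progenitor-like cells of Control, 68 of its 81 UMIs were in 5 cells. Id1 was higher in GA in Stem 2-like cells (1.44) and in B cells (1.58, 16 against 5 UMIs), and lower in the cluster led by S100a8, S100a9 and Ngp (−3.28, 12 UMIs in 35 cells against 11 UMIs in 3 cells).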

How the results depend on the processing

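Of 552 values of 43 log2 ratios recomputed under the processing choices listed at the outset, 536 kept their direction, and 28 of the ratios kept it in every one of these. Apart from the 10 lineage-wide ratios, only ratios whose interval lay off 0 were recomputed. They were thus chosen for a clear direction in the same data, and the count that kept it says little about robustness. Setting ratios against the class median, close to 0, could hardly turn them (43 of 43 kept their direction). In lineage classes, the choice that subtracted free RNA used erythroid RNA, in which only 1 of the 10 members reached 20 UMIs. It could therefore hardly move those ratios, and it did not subtract neutrophil RNA. Of the 10 lineage ratios, 7 kept their direction with the Control make-up and 8 without fibroblastic progenitor-like cells, both chosen after seeing the data. Among ratios past 2-fold, 2 turned. Bmp2 in osteoblast-like cells went from 1.24 to −0.075 when every cell was thinned to 2000 UMIs, and Bmp6 in the lineage from −1.13 to 0.11 without the fibroblastic progenitor-like cells. The cause was not tested. Bmp7 in the lineage ranged from 1.30 to 1.67 under the former choices, and was 1.04 with the Control make-up and 2.28 without fibroblastic progenitor-like cells. Thinning left 1 Bmp4 UMI in each library in Stem 2-like cells, and 6 and 2 UMIs of both Bmp7 and Id1, too few for a ratio. Without it, Bmp7 there ranged from 2.36 to 3.14, Bmp4 from 1.51 (Leiden resolution 0.5) to 3.21, Id1 from 0.51 (Leiden resolution 0.5) to 1.75, and Grem1 in Stem 1-like cells from −4.27 to −0.77 (no batch correction). The count of members past 2-fold in the lineage, 2, was 1 with doublets kept, where Bmp6 fell below the threshold, and 6 at a threshold of 1.5-fold. The count of pathway genes, 3, was 6 with the mean of single-cell CPM, 6 with thinned cells and 5 with no minimum of UMIs. The counts under these other settings and at 1.5-fold stand without the share of all genes beside them, so nothing about either list is read from them. With the Control make-up, members past 2-fold were Bmp7 and Nog. No paired analysis was possible because each condition is 1 library. Depth limits Nog, Bmp7 outside Stem 2-like and osteoblast-like cells, and every class with under 50 GA cells.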
